A study of Mus musculus with 12 samples.

Results

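The genes for heat shock proteins, DnaJ proteins and the cytosolic chaperonin are described here in mouse embryonic fibroblasts under doxorubicin. They were chosen by name alone: every gene whose symbol starts with Dnaj, Hspa, Hspb, Hsph, Hsp90 or Cct followed by a digit, together with Tcp1, Hspd1, Hspe1, Hsf1 and Hsf2. This rule found 78 of the 16425 genes in the table: 39 DnaJ genes (4 Dnaja, 10 Dnajb, 25 Dnajc), 14 Hspa and Hsph genes, 9 chaperonin genes, 7 Hspb genes, 3 Hsp90 genes, Hspd1 with Hspe1, and Hsf1 with Hsf2. It also took in Hspbp1 and Hspbap1, whose symbols share only the prefix, and Hspb11, which encodes an intraflagellar transport protein rather than a classical small heat shock protein. Levels of 76 of the 78 passed the filter of at least 0.5 CPM (the deposited level, reads scaled to library size) in at least 3 libraries. The testis-enriched genes Hspa1l and Cct6b did not, with means of 0.240 and 0.263 CPM.

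The cells were wild-type fibroblasts infected with an sgRNA, a guide that directs a nuclease to a DNA site. One guide targeted the p53 response element of Pvt1, the site through which the transcription factor p53 acts on this long noncoding RNA gene. The control guide, called sgtom, was non-targeting. All 6 libraries used here, 3 per guide, came from cells kept for 24 h in 0.5 µM doxorubicin, a drug that breaks DNA and activates p53. The 6 untreated samples of the series were not analysed here, so no value below is a response to doxorubicin. The study asks what loss of the response element does to the p53 response. The labels call the replicates biological, and no source used here says whether infected cells were pooled or cloned.

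Molecular chaperones bind unfolded chains of other proteins and help them fold, cross membranes or be degraded. Hsp70 proteins (Hspa genes) cycle between ATP and ADP states, J proteins (Dnaj genes) deliver clients and trigger hydrolysis, exchange factors such as Hsph1 reset the cycle, and Hsp90 takes over partly folded kinases and receptors. Small heat shock proteins (Hspb genes) hold unfolded chains without ATP, and the chaperonins are barrels in which actin, tubulin or mitochondrial proteins fold. Hsf1 is the factor that switches on the inducible members in stressed cells, whereas misfolding inside the endoplasmic reticulum (ER) raises a separate set led by Hspa5, also called BiP.

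The libraries held 50091418 to 66132317 reads in genes. The members took 1.18 to 1.27% of these reads, and a member had 5 to 140657 reads in a library. Pvt1 was at 16.4, 11.7 and 12.1 CPM with the control guide and at 8.04, 5.93 and 5.40 CPM with the p53RE guide, the guide against the response element, so the targeted gene was lower where the labels place that guide. Myc, its neighbour, was at 28.7, 27.0 and 35.6 CPM with the control guide and at 43.5, 48.6 and 53.8 CPM with the other. All 15 fibroblast markers were listed. Their summed level was 40655 to 41073 CPM with the control guide and 39330 to 40571 CPM with the p53RE guide. Fn1 and Col1a1, with means of 21016 and 7910 CPM, weighed most in this sum, and single markers were less even. In replicate 1, Thy1 was at 190 and 222 CPM, against 371 to 429 CPM in the other libraries. Lum was at 20.6 and 22.7 CPM there, against 4.21 to 8.27 CPM. Replicate 1 differed from the others in macrophage markers (Lyz2, Cd68, Csf1r and 11 more of a list of 15, with Aif1 not listed), which summed to 234 CPM with the control guide and 368 CPM with the p53RE guide. The other 4 libraries had 107 to 136 CPM of these markers. In bulk RNA, fewer cells of a type and less RNA per cell cannot be told apart.

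The chaperone genes differed little between the guides. None of the 76 passed an adjusted p of 0.05 in limma, where 0% of 14440 genes did. With replicate number as a block, which was used because equal numbers paired the libraries, none passed either, where 5 genes (0.0346%) did. Over the members, 33 were higher and 43 lower with the p53RE guide, with a median log2 fold change of -0.01, against 7176 higher and 7264 lower and a median of 0.00 over all genes tested. The ratio of group means was within 10% of 1 for 71 of the 76 members, and for 84.7% of all genes. The median SE of a member's log2 fold change was 0.0851 without the block and 0.0376 with it. Unless stated otherwise, a ± after a log2 fold change is the SE without the block. This holds also where a blocked p, which rests on the blocked SE, stands beside it.

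**Figure D1:**
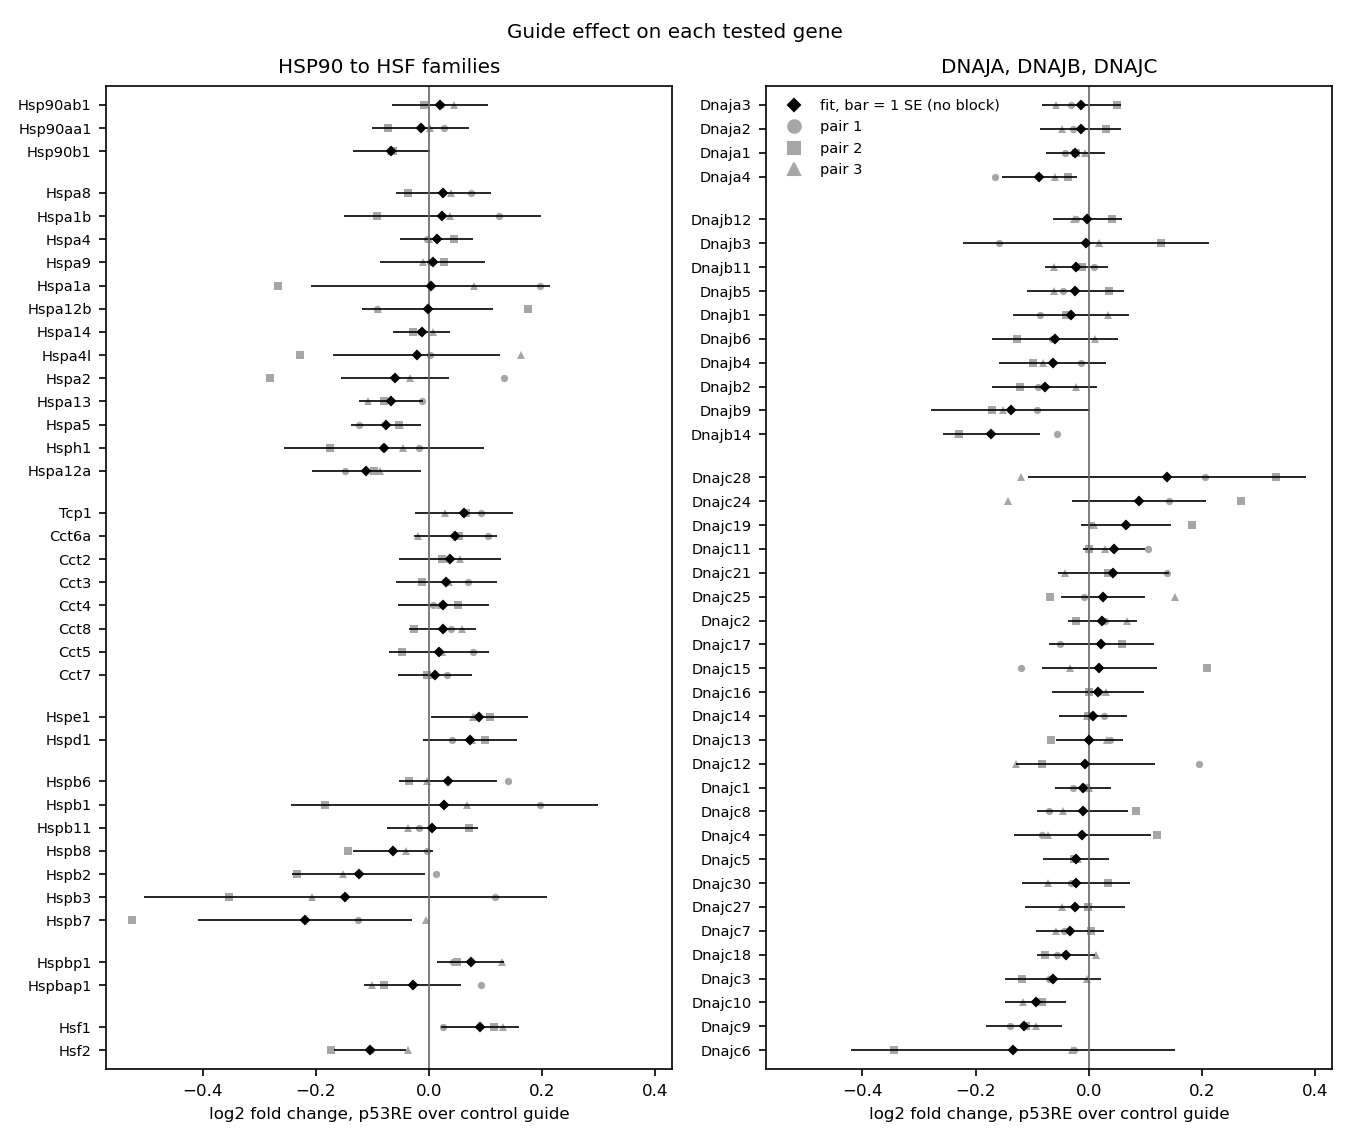
Log2 fold change of the p53RE guide over the control guide for each of the 76 tested genes (horizontal axis), grouped by family; black diamonds are the fit without block with bars of 1 SE, and grey symbols are the 3 replicate pairs. Most diamonds lie within 0.1 of 0, all 10 Dnajb genes are at or left of 0, and Hspd1 and Hspe1 lie to its right in each pair.

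At an unadjusted p under 0.05, the blocked limma fit held 7 members, where 6.68% of all genes lay below it. These were Dnajb9, Dnajc9, Dnajc10, Hspa5, Hspe1, Hspd1 and Hsf1. Their adjusted p ranged from 0.570 for Dnajb9 to 0.738 in the same fit, and without the block no member had an unadjusted p under 0.05, among 50 genes that did. In the pairs, 10 members were higher with the p53RE guide in all 3 and 20 were lower in all 3, against 14.4% of all genes for the upward and 14.4% for the downward direction. For 4 members (Hspa5, Dnajc10, Dnajb14 and Hsf2) every p53RE library lay below every control library, where 1.47% of all genes did so. No member had every p53RE library above the controls, where 2.15% of genes did so. The authors' deposited table, which has no block, gave a smallest member p of 0.303 and a false discovery rate of 1 for each member.

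Hsf1 and Hsf2 encode the heat shock factors that bind the promoters of inducible chaperones. Hsf1 was at 55.2, 48.9 and 48.6 CPM with the control guide and at 56.2, 52.995 and 53.3 CPM with the p53RE guide. The p53RE library was the higher in each pair, but the groups overlapped. The log2 fold change was 0.09, with an SE of 0.069 without the block and 0.0390 with it. The blocked limma p was 0.0397 (adjusted p = 0.738). Hsf2 was at 19.98, 20.1 and 18.8 CPM with the control guide and at 18.6, 17.7 and 18.3 CPM with the other. Its groups did not overlap, and its log2 fold change of -0.10 ± 0.063 had a blocked limma p of 0.0819 (adjusted p = 0.751).

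Hsp90ab1, the constitutive cytosolic Hsp90, had the highest level of all members per exon length, 627 CPM per kb. It was at 1755, 1974 and 1876 CPM with the control guide and at 1782, 1963 and 1934 CPM with the p53RE guide, in 6 libraries that interleave by guide. Hsp90aa1, the inducible cytosolic form, was at 570, 593 and 647 CPM against 580, 564 and 648 CPM. Hsp90b1, the Hsp90 of the ER, was at 827, 879 and 838 CPM against 789, 841 and 800 CPM, lower by about the same step in each pair (log2 fold change -0.07 ± 0.067, blocked limma adjusted p = 0.738).

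Among the Hsp70 genes, Hspa5 of the ER and Hspa8 of the cytosol had the highest levels per length, 175 and 169 CPM per kb. Hspa8 was at 660, 771 and 731 CPM with the control guide and at 695, 752 and 750 CPM with the p53RE guide, which overlap. Hspa4, an exchange factor, and Hspa9, the Hsp70 of mitochondria, had group means that differed by 1.003% and 0.452%. Hspa2, a gene best known from the testis, was at 45.9, 52.4 and 53.01 CPM against 50.4, 43.0 and 51.8 CPM. Hspa12a was at 9.26, 10.1 and 10.4 CPM against 8.31, 9.44 and 9.76 CPM, lower in each pair with a log2 fold change of -0.11 ± 0.096 and a blocked limma p of 0.132 (adjusted p = 0.786). Of the 13 tested Hspa and Hsph genes, 5 were higher and 8 lower, and none passed the test.

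**Figure D2:**
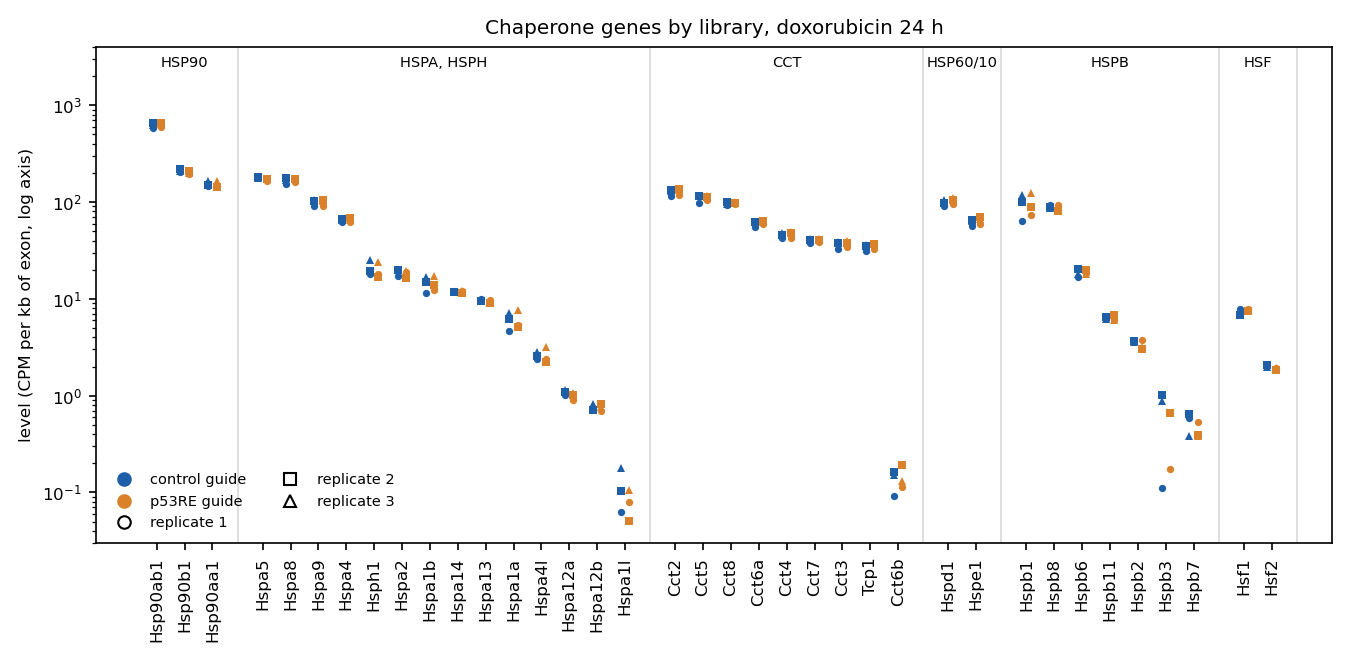
Level of each Hsp90, Hspa, Hsph, chaperonin, Hspb and Hsf gene in each of the 6 libraries, in CPM per kb of exon on a log axis, ordered by level within a family; colour gives the guide and symbol the replicate. Levels run from 627 CPM per kb for Hsp90ab1 to 0.0970 for Hspa1l, and colours overlap for most genes.

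The DnaJ genes encode the J proteins that serve these Hsp70s. Of 39, 12 were higher and 27 lower with the p53RE guide, with a median log2 fold change of -0.01, and none passed the test. All 10 Dnajb genes had a log2 fold change below 0 in limma (median -0.05). Of these, 4 were lower in all 3 pairs, where 14.4% of all genes were. Dnajb3, at -0.0045, was higher in 2 of 3 pairs, with a ratio of group means of 1.01. With edgeR, and with DESeq2, 9 of the 10 were below 0. The limma count dropped to 6 without control replicate 2, in a fit without the block that kept the p53RE library of that replicate. Per exon length the highest level of the DnaJ genes was that of Dnaja2, a cytosolic partner of Hspa8, at 54.6 CPM per kb. Dnajb11 of the ER followed at 45.1 and Dnajb1 at 33.1 CPM per kb. Dnaja2 was at 170, 165 and 155 CPM with the control guide and at 167, 168 and 150 CPM with the p53RE guide. Dnajb6, a suppressor of aggregation, was at 144, 180 and 163 CPM against 137, 164 and 165 CPM. Dnajc5, the cysteine string protein of secretory vesicles, was at 167, 168 and 157 CPM with the control guide and at 164, 165 and 155 CPM with the other. Dnajc13, an endosomal J protein, had group means that differed by 0.02%.

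Dnajc9, a nuclear J protein that also binds histones, was at 80.4, 72.1 and 73.1 CPM with the control guide and at 72.9, 66.7 and 68.5 CPM with the p53RE guide. It was lower in each pair, by a log2 fold change of -0.11 ± 0.067, with a blocked limma p of 0.00633 (adjusted p = 0.619). Dnajb14, which sits in the ER membrane facing the cytosol, was at 6.72, 7.18 and 7.22 CPM against 6.44, 6.05 and 6.08 CPM. Its log2 fold change of -0.17 ± 0.086 was the lowest of the Dnajb genes, from 338 reads or more per library. In the upward direction the smallest blocked p belonged to Dnajc11, which acts in mitochondrial cristae, at 65.2, 71.4 and 69.0 CPM against 70.1, 71.4 and 70.4 CPM (blocked limma adjusted p = 0.849). Dnajc28, Dnajc24 and Dnajc19 followed it with p of 0.271, 0.357 and 0.357.

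The ER lumen holds its own chaperone set, and 3 of its genes carry the ER stress response element, the letters CCAAT and CCACG with 9 bases between them on either strand, in the 250 bases before a start site. These were Hspa5, Hsp90b1 and Dnajc3, out of 64 members with a promoter in RefSeq (GRCm38.p6). Counted by promoter window, 3 of 83 member windows (3.61%) hold it, against 0.113% of all 32851. The element was already known from such genes and was chosen after values were seen, so that this contrast is no result. The matches are shown 5′ to 3′ on the gene's strand with the element in capitals, because this is the sequence by which these genes are known to be induced together. The Hspa5 stretch at chr2:34772020-34772048 (plus strand) overlaps an exon annotated in GENCODE M21, and its match ends at 34772043, 46 bases before the start. The Dnajc3 stretch is chr14:118937807-118937865 (plus strand), with the match at 118937827 to 118937845. The Hsp90b1 stretch at chr10:86705513-86705676 (minus strand) holds the element in each orientation.
Hspa5: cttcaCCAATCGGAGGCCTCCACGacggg
Dnajc3: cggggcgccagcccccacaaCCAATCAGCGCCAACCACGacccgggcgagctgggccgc
Hsp90b1: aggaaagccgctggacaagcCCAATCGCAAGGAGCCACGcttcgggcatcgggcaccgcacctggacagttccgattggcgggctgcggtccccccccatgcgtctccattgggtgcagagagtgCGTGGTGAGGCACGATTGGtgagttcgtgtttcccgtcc

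The 8 ER lumen members described here were picked after values were seen, so that their count by direction is no result. Their log2 fold changes ran from -0.14 for Dnajb9 to -0.01 for Dnajc1. Other ER lumen genes, which stand in the partner lists, went both ways: Hyou1, Sil1 and Serpinh1 had log2 fold changes of 0.02, 0.01 and 0.01, and Sdf2 and Sdf2l1 had -0.03 and -0.04. Of these, Hyou1, an Hsp110 of the ER, was higher in all 3 pairs, and none passed the test. Hspa5 (chr2:34771970-34777547, mm10) was at 767, 760 and 751 CPM with the control guide and at 704, 733 and 725 CPM with the p53RE guide. Every p53RE library was below every control, with a log2 fold change of -0.08 ± 0.061 and a blocked limma p of 0.0412 (adjusted p = 0.738).

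Dnajc10, a J protein with disulfide reductase activity, was at 158, 155 and 152 CPM against 149, 146 and 141 CPM, also with no overlap (log2 fold change -0.09 ± 0.053, blocked limma adjusted p = 0.672). Dnajb9, a J protein that holds the stress sensor Ire1 with Hspa5, had the smallest blocked p of all members. It was at 101, 80.4 and 81.8 CPM with the control guide and at 95.0, 71.4 and 73.6 CPM with the p53RE guide. Replicate 1 was high with both guides, so the groups overlapped while each pair was lower, by a log2 fold change of -0.14 ± 0.140 without the block and ± 0.0349 with it (blocked limma adjusted p = 0.570). Dnajc3, which also inhibits the kinase Perk, was at 103, 90.4 and 93.1 CPM against 98.2, 83.2 and 92.9 CPM. Hspa13, a truncated Hsp70, was at 67.3, 64.8 and 66.9 CPM against 66.7, 61.3 and 62.0 CPM. Dnajb11 and Dnajc1, the latter outside the rule for named genes, had group means within 2% of each other, and each was lower in 2 of 3 pairs.

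**Figure D3:**
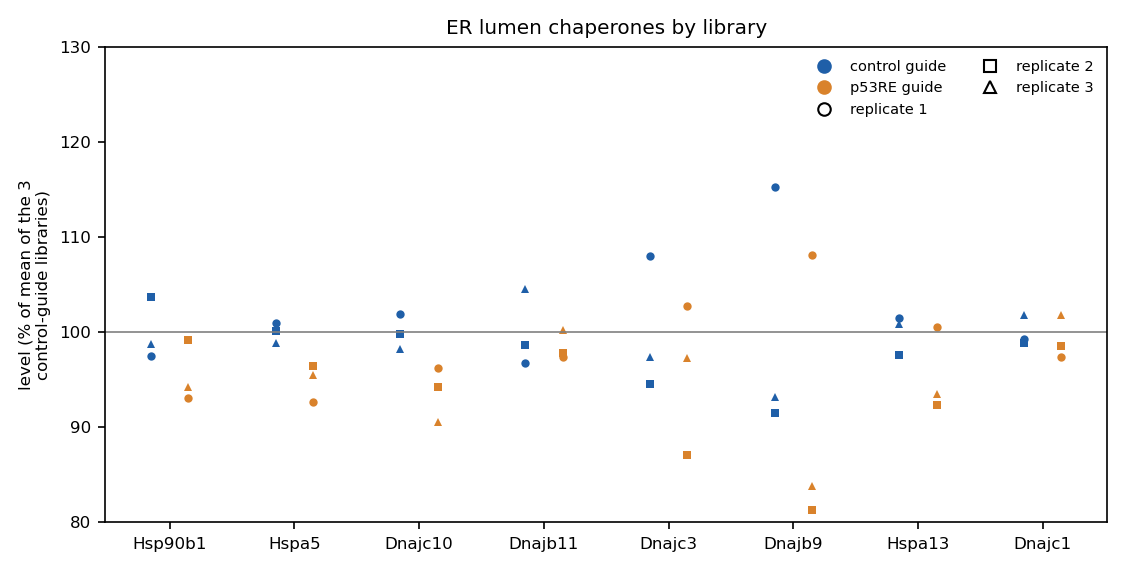
Level of the 8 ER lumen chaperone genes in each library as a percentage of the mean of the 3 control-guide libraries (vertical axis, from 80%); colour gives the guide and symbol the replicate. The p53RE libraries lie below all controls for Hspa5 and Dnajc10, where 1.47% of all genes did so. They lie below the control of the same replicate in all 3 pairs for 6 genes, where 14.4% of all genes did so. The 8 genes were picked after values were seen, so that these counts are no result.

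In mitochondria, Hspd1 and Hspe1 encode the chaperonin barrel and its lid. They lie next to each other on opposite strands of chromosome 1. RefSeq starts Hspe1 at 55088148 on the plus strand and Hspd1 on the minus strand at 55088243 or at 55087932. With the first Hspd1 start, 95 bases from that of Hspe1, the genes overlap, and with the second they lie head to head with 216 bases between the starts. The windows before Hspe1 and before the second Hspd1 start hold the same heat shock element of 3 units (GAA, TTC and GAA, or TTC, GAA and TTC, with 2 bases between neighbours, on either strand). It is not in the window before the first Hspd1 start. Of all windows, 0.466% hold such an element, and among the members only Dnajb6 does besides. The element is shown at chr1:55088053-55088082, GRCm38.p6, read along each gene, with the overlapping matches in capitals, because 1 site lies upstream of Hspe1 and of 1 of the Hspd1 starts. It overlaps an annotated exon.
Hspe1, plus strand: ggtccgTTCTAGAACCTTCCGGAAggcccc
Hspd1, minus strand: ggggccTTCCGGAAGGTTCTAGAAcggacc

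Hspd1 was at 243, 256 and 276 CPM with the control guide and at 250, 274 and 291 CPM with the p53RE guide. Hspe1 was at 83.0, 95.6 and 93.1 CPM against 87.9, 103 and 98.2 CPM. Both were higher in each of the 3 pairs but overlapped between the guides. The log2 fold change was 0.07 ± 0.083 for Hspd1 (blocked limma adjusted p = 0.738). It was 0.09 ± 0.086 for Hspe1 (blocked limma adjusted p = 0.684).

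The cytosolic chaperonin, a ring that folds actin and tubulin, is built from Tcp1 and the Cct subunits. All 8 tested subunit genes had a log2 fold change above 0, from 0.01 for Cct7 to 0.06 for Tcp1, with a median of 0.03. None passed the test, and the guides overlapped for each of them. Tcp1 was at 155, 179 and 181 CPM with the control guide and at 165, 187 and 185 CPM with the p53RE guide (blocked limma adjusted p = 0.750). Without control replicate 1, which was the lowest library of the subunits, 0 of 8 were above 0, and without p53RE replicate 3 there were 4. These fits had no block, so the partner library of the same replicate stayed in and replicate differences entered the counts. Within pairs 1, 2 and 3, the median log2 fold changes of the 8 were 0.05, 0.01 and 0.03. Of the 8, 3 were higher in all 3 pairs, where 14.4% of all genes were, and the rest were each lower in 1 pair. Per exon length the levels ran from 34.9 CPM per kb for Tcp1 to 128 CPM per kb for Cct2.

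Levels of the Hspb genes ran from 0.489 CPM per kb for Hspb7 to 94.6 CPM per kb for Hspb1. Hspb8, a partner of Bag3 in autophagy, was at 181, 173 and 169 CPM with the control guide and at 180, 157 and 165 CPM with the other. Hspb6 was at 38.3, 46.7 and 41.5 CPM against 42.2, 45.5 and 41.4 CPM. The muscle-enriched Hspb2, Hspb7 and Hspb3 had means of 2.89, 1.35 and 0.458 CPM. Hspb7 had the lowest fitted log2 fold change of the tested members, -0.22 ± 0.189, from 1.64, 1.79 and 1.06 CPM against 1.47, 1.09 and 1.06 CPM (blocked limma adjusted p = 0.773). As a plain ratio of means it was at 0.804, above Hspb3 at 0.751 and the untested Hspa1l at 0.682, both with few reads. Of Hspb2, 30.2% of the exon bases overlap Cryab on the other strand. For this gene, and for Hspa1l with 71.9%, reads may be shared with the partner, since the strand setting of the counting is not given in the sources used here.

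Many members differed between replicate numbers, as many genes of the whole table did. A limma F test of replicate number beside the guide passed an adjusted p of 0.05 for 37 of 76 members, a share close to the 48.6% over all genes. The range between replicate means was larger than the guide difference for 70 of 76 members, as it was for 93.3% of all genes. These measures are unlike, since a range over 3 means of 2 libraries tends to exceed a difference of 2 means of 3. The count therefore does not show which effect was larger. The median range of a member was 0.15 on the log2 scale, against 0.23 over all genes. The count of members dropped to 11 without replicate 1 and to 22 without replicate 3, to 24 with DESeq2 and to 9 in limma without a trend. Over all genes, the count dropped from 7022 to 3164, 4842, 4876 and 4328 in the same order.

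Of genes known to be heat-inducible, 7 cytosolic ones are described here, picked after values were seen, so that their shared order of replicates is no result. All 7 (Hspb1, Hspa1a, Hspa1b, Hsph1, Hspa4l, Dnajb1 and Hsp90aa1) passed the F test, and all 7 had their lowest mean in replicate 1, with a median range of 0.45. Over all genes, 48.6% passed, replicate 1 was lowest for 5605 of 14440, and the median range was 0.23. Without replicate 3, and in limma without a trend, 3 of the 7 passed. Hspb1, the small heat shock protein Hsp25, was at 66.2, 104 and 121 CPM with the control guide and at 75.9, 91.5 and 127 CPM with the p53RE guide. Replicate 3 was thus 1.74 times replicate 1 over both guides (adjusted p = 0.00111, limma F test), while the guide means were 97.0 ± 28.0 and 98.0 ± 26.0 CPM (SD, n = 3).

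Hspa1b, an inducible Hsp70, was at 32.1, 41.9 and 47.1 CPM against 35.0, 39.3 and 48.4 CPM, with a ratio of 1.42 between the highest and lowest replicate (adjusted p = 8.51e-05, limma F test). Hspa1a was at 13.7, 18.4 and 21.4 CPM against 15.7, 15.2 and 22.6 CPM. These copies are nearly identical, so the split of reads between them is uncertain. Hsph1, the exchange factor Hsp110, was at 132, 139 and 182 CPM against 130, 123.5 and 176 CPM, high in replicate 3 with both guides (adjusted p = 1.06e-05, limma F test). Dnajb1, the J protein of the inducible Hsp70, was instead highest in replicate 2, at 99.4, 119 and 104 CPM against 93.6, 115 and 106 CPM. Other inducible genes in the tables were highest in replicate 1. Over both guides, the means of replicates 1, 2 and 3 were 481, 369 and 378 CPM for Cryab, a small heat shock protein, and 97.8, 84.7 and 83.3 CPM for Dnajb4, a cytosolic J protein. They were 181, 165 and 167 CPM for Hspb8 and 156, 152 and 140 CPM for Bag3, its partner.

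**Figure D4:**
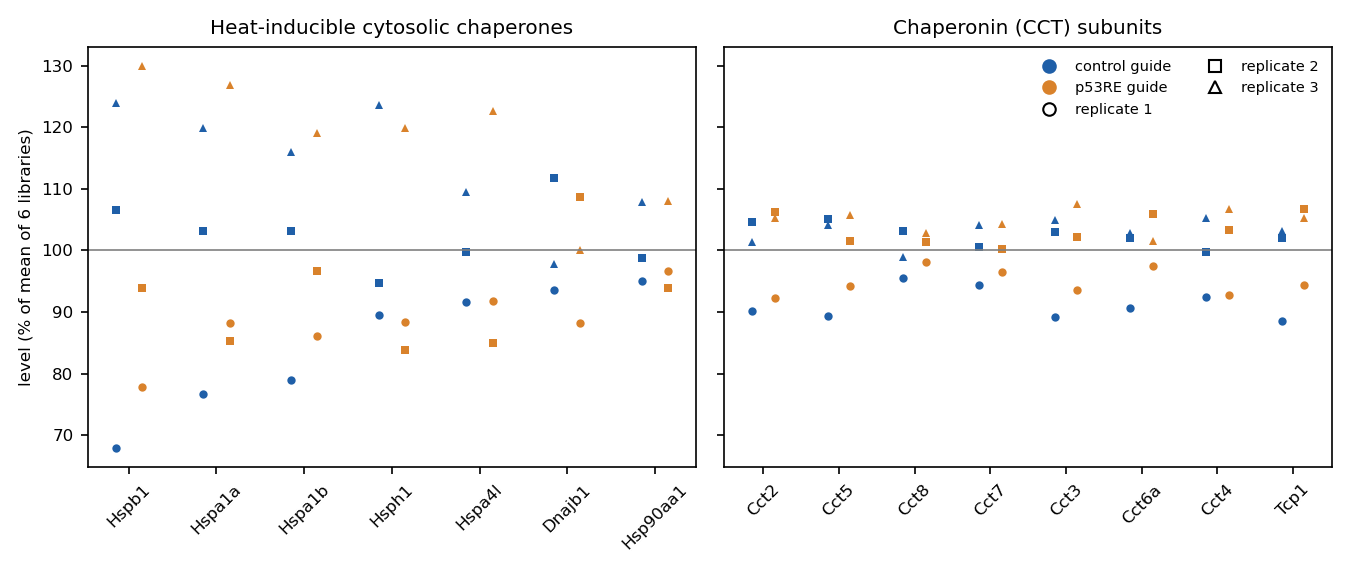
Level of the 7 heat-inducible cytosolic genes (left) and the 8 tested chaperonin subunits (right) in each library, as a percentage of the gene's mean over the 6 libraries; colour gives the guide and symbol the replicate. Replicate means differ up to 1.74 times for Hspb1 on the left and by at most 1.16 times on the right, where replicate 1 is lowest for each gene.

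For comparison with the element shared by Hspd1 and Hspe1, the promoter windows of Hspa1a, Hspa1b and Hspb1 hold only a heat shock element of 2 units (GAA and TTC, or TTC and GAA, with 2 bases between them, contained in the 3-unit form). This shorter element occurs in 12.8% of all windows and in 18 of 83 member windows (21.7%), which belong to 16 of the 64 members. The stretches are shown on the gene's strand with the element in capitals, because these genes had the widest ranges between replicates in the heat-inducible list. Those of Hspa1a (chr17:34972233-34972280, minus strand) and Hspa1b (chr17:34959315-34959362, minus strand) have the same letters. That of Hspb1 (chr5:135887782-135887849, plus strand) holds the element at 2 places.
Hspa1a: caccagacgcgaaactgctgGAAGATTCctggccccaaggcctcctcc
Hspa1b: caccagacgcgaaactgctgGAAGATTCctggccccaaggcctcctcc
Hspb1: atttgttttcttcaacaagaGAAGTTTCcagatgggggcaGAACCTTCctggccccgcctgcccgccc

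The chaperonin subunits followed replicate number as well. Of the 8, 7 passed the F test, where 48.6% of all genes did. All 8 were lowest in replicate 1, as were 39 of the 76 tested members and 5605 of 14440 genes. The steps were small, with a median range of 0.19 for the subunits, against 0.23 over all genes. Cct2 was at 294, 341 and 331 CPM with the control guide and at 301, 347 and 343 CPM with the other (adjusted p = 0.00161, limma F test). Hspa5 differed 1.02 times between its highest and lowest replicate, and Dnajb9 1.29 times, with replicate 1 the highest (adjusted p = 3.93e-05, limma F test). Hspb3 had the largest ratio, 5.94 times, from as few as 5 reads in a library. The summed macrophage markers were highest in replicate 1, where the chaperonin genes and the 7 inducible genes were lowest and Dnajb9, Cryab and Dnajb4 highest, and their part in these differences was not tested.

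The partners of these chaperones were read from 5 lists of 65 genes, of which 64 passed the filter. Hspbp1, in the list of Hsp70 partners, is also a member by its symbol and is counted in both. Of the tested partners, 36 were higher and 28 lower with the p53RE guide, with a median log2 fold change of 0.01, and none passed the test with or without the block. Among 18 Hsp90 co-chaperones, 13 were higher. Cdc37, which loads kinases, was at 251, 274 and 255 CPM against 249, 271 and 267 CPM. Ppid, a cyclophilin, was at 57.7, 50.8 and 53.1 CPM against 60.8, 56.2 and 56.2 CPM, higher in each pair (blocked limma adjusted p = 0.684). Fkbp5, an immunophilin, varied from 4.35 to 8.0002 CPM with the control guide and from 4.97 to 6.48 CPM with the other.

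Of 16 Hsp70 partners, 9 were higher and 7 lower. Bag6, which guards hydrophobic proteins, was at 229, 262 and 250 CPM against 240, 278 and 264 CPM. Tomm70a, a mitochondrial import receptor, was at 95.4, 109 and 99.9 CPM against 100.2, 115 and 108 CPM. Each was higher in the 3 pairs, with blocked limma p of 0.0313 and 0.0247 and adjusted p of 0.725 and 0.704. St13 was lower in the 3 pairs by a log2 fold change of -0.05. Of 12 prefoldin and chaperonin partners, 6 were higher and 6 lower. Vbp1, a prefoldin subunit, was at 33.0, 31.2 and 29.8 CPM against 28.3, 30.03 and 28.7 CPM. Pfdn4, another, was at 16.1, 15.9 and 17.2 CPM against 19.0, 17.3 and 17.1 CPM, and Pdrg1, named for the highest mean CPM of that list, was at 262, 228 and 220 CPM against 256, 217 and 220 CPM.

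Among 7 tubulin folding cofactors, Tbcel was at 108, 79.6 and 72.5 CPM against 102, 79.3 and 73.1 CPM, with the step between replicates larger than that between guides. Tbce and Tbca had log2 fold changes of 0.07 and -0.05, and neither passed the test. In the list of disaggregation, protease and other response genes, 3 of 11 tested were higher. Clpb, a mitochondrial disaggregase, was at 45.3, 46.3 and 45.6 CPM against 46.8, 48.7 and 47.5 CPM, so that its groups did not overlap (blocked limma adjusted p = 0.803). Serpinh1, the collagen chaperone of the ER, named for its list's highest mean CPM, had group means that differed by less than their spread.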

How the data were processed

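RNA was measured by strand-specific sequencing of polyadenylated RNA, per the labels' protocols. Per the submitters' processing notes, the tools were HTSeq 0.6.1, edgeR 3.22.3, StringTie 1.2.4 and TopHat2 2.0.14 on the build mm10, with no roles, order or strand setting. The deposited CPM per gene and library were made by the authors with edgeR, per the file headers. The authors' log2 fold change and log2 CPM, and their p-value and false discovery rate for the guide effect, stand in the same deposited table. Its 6 columns of pseudo-counts were not used, and 2 rows that name no gene were removed (reads in no feature, 8.06 to 8.94%, and ambiguous reads, 0.543 to 1.58%).

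The main test was limma 3.58.1 (trend, robust; R 4.3.3) on log2(CPM + 0.5) of 14440 genes with at least 0.5 CPM in 3 libraries, 4 residual degrees of freedom, with Benjamini-Hochberg adjustment over all of them and a threshold of 0.05. Fold changes are on this scale and understate those of low genes. Deviations from group means correlated at 0.869, 0.739 and 0.817 between libraries of equal replicate number and at most at 0.203 otherwise, so the numbers pair the libraries, and a blocked fit, in which replicate number is a term (2 residual degrees of freedom), stands beside it. Each CPM was a whole multiple of 1 read (100% of values, within 0.01 reads), and edgeR 4.0.16 and DESeq2 1.42.0 were run on these reads. The fits were tested on simulated data.

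Coordinates and exon lengths come from GENCODE M21, and promoter windows from RefSeq (GRCm38.p6). Every member except the DnaJ genes could be named. Of the DnaJ genes, the 10 of highest mean and the 4 of smallest blocked p on each side could be, and of each partner list the highest mean and the smallest blocked p on each side. Members and lists were chosen with earlier results of these data known, and the ER lumen and heat-inducible lists and the motifs after values were seen. Sil1, Hyou1, Sdf2, Sdf2l1, Bag3, Cryab, Dnajb3 and Dnajc1 are named outside this rule, after their values were seen. One gene that the rule for named partners would name is not reported here.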

Additional observations from a re-analysis of the deposited data

How the results depend on the processing

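The results were recomputed with edgeR, with DESeq2, with limma without trend, with pseudocounts of 0.1 and 1, after median centring or quantile normalization, without a filter or with only genes whose mean was 5 CPM or more, with the replicate block, and with each library or replicate number left out. No member was called for the guide in any of them, with a smallest adjusted p of 0.999 without the block, 0.570 in the blocked limma fit, and 0.0943 (without replicate 2) to 0.9999 (DESeq2) over the alternatives to the blocked fit. Over all genes, 0 were called for the guide in limma, 5 with the replicate block and 1 with DESeq2. The paired fit called 0 genes in limma without trend, and 8 to 156 with a replicate number left out. The replicate block changed no member's call. The median log2 fold change of the members, -0.01, ranged from -0.026 to 0.00391 as single libraries were left out, without the block. Of 1208 comparisons of 1 gene and 1 alternative, 105 changed sign, all for values that passed no test, and the median of all genes moved by at most 0.00264. For replicate number, 7022 genes were called, 4328 in limma without trend and 3164 to 6852 with a number left out. Of the 37 members called, limma without trend held 9, DESeq2 24 and the fits without a number 11 to 37. For the 7 heat-inducible genes these were 3 in limma without trend and 3 to 7. With single libraries left out, in fits without the block that break a pair, 0 to 8 chaperonin genes were above and 6 to 10 Dnajb genes below the control. The last 4 counts, and that of the ER lumen genes (6 to 8 below the control), were chosen after seeing the data. Depth limits the members near 1 CPM, which rest on under 100 reads in a library, and 3 libraries a group limit the rest.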
